A study of Mus musculus with 13 samples.

Results

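The 7 Fc receptor genes described here are Fcgr1, Fcgr3, Fcgr4, Fcer1g, Fcgr2b, Fcgrt and Fcrls, found by their exact names among the 20971 genes of a cortex RNA-sequencing table. The libraries came from C57BL/6 mice aged 6 months, 7 of them APPPS1;Apoe-/- and 6 of them APPPS1. By their labels all 13 mice therefore carried the APPPS1 transgenes. These express mutant human transgenes, App among them, in neurons under the Thy1 promoter and lead to amyloid plaques in the cortex. The groups differed in having or lacking Apoe, the gene of the lipid carrier apolipoprotein E. No group without the transgenes was analysed here, and the labels give no sex. Values are RPKM (alignments scaled by gene length and by the mapped total of the library, as deposited). They put the levels of different genes on a common scale, but the gene lengths used are not stated, so comparisons between genes are approximate. The comparison asked how the absence of Apoe changed the transcriptome of cortex labelled APPPS1.

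Fc receptors read out antibodies that have bound a target. Fcgr1, the high-affinity IgG receptor, and Fcgr3 and Fcgr4, which bind IgG with lower affinity, are activating receptors that signal through a shared partner, the Fc receptor gamma chain encoded by Fcer1g. Fcgr2b carries an inhibitory motif in its own tail and dampens that signal. Fcgrt encodes the heavy chain of the neonatal Fc receptor, which pairs with beta-2 microglobulin and recycles IgG and albumin inside cells, in endothelium among others. Fcrls belongs to the Fc receptor-like family and in the mouse brain is a marker of microglia, the resident macrophages, which are also the main brain cells with activating Fc receptors.

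On the mm10 assembly with GENCODE release M21, the members lie on 3 chromosomes. Fcgr2b (chr1:170958617-170976547, minus strand), Fcgr4 (chr1:171018920-171029761, plus strand), Fcgr3 (chr1:171051174-171064935, minus strand) and Fcer1g (chr1:171229572-171234365, minus strand) fall within 276 kb of chromosome 1. Fcrls (chr3:87250758-87263738) and Fcgr1 (chr3:96282909-96293969) lie on the minus strand of chromosome 3. Fcgrt (chr7:45092990-45103851, minus strand) is on chromosome 7, 25.4 Mb from Apoe. The inhibitory Fcgr2b and the activating Fcgr3 are close relatives in sequence, which bears on how their values can be read. The following coding stretch of 120 bases in exon 4 differs at 1 base between them, shown in capitals, and both lines read 5′ to 3′ on the minus strand:
Fcgr2b chr1:170966581-170966700: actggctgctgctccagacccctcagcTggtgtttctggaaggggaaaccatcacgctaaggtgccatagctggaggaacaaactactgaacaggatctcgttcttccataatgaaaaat
Fcgr3 chr1:171054074-171054193: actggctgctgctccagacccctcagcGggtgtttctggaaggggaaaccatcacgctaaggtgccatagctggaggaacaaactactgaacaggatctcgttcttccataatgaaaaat
The whole exon of 255 bases differs at 5 bases. Of the 50-base words of the longest coding transcript of Fcgr3, 12.8% also occur in Fcgr2b. Of those of Fcgr2b, 4.96% occur in Fcgr3 and 8.60% in other genes with Fcgr3 included. The sources used here give neither the read length nor the treatment of reads with several matches, so a part of the values of Fcgr2b and Fcgr3 could have been exchanged between them. Fcgr1, Fcgr4, Fcer1g, Fcgrt and Fcrls shared 0% of such words with any other gene.

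Some properties of the libraries bear on every result. Apoe stood at 4.01 to 6.35 RPKM in APPPS1;Apoe-/- libraries, against 463 to 670 RPKM in APPPS1 libraries, so it followed the labels in 13 of 13 libraries. APPPS1;Apoe-/- replicates 2 and 5 had App levels of 106 and 116 RPKM, while the remaining 11 libraries ranged over 176 to 217 RPKM. Whether transgene expression differed in these 2 mice was not tested. The members' tests are therefore also given without these 2 libraries, called low-App below. Alignments numbered 18455493 to 34538031 in APPPS1;Apoe-/- libraries, against 28402328 to 77005806 in APPPS1 libraries. Because depth and genotype moved together, a fit that adjusts for log2 alignments is given where it ended a call. A sex score (log2 level of Xist minus the mean log2 level of Y-linked genes) was positive in 10 of 13 libraries. It was negative in APPPS1;Apoe-/- replicates 1 and 3 and in APPPS1 replicate 2. The study's design counts the libraries as separate mice, and p-values measure the spread between them.

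The order of the levels was stable across the libraries. In 11 of 13 libraries the RPKM ran, from high to low, Fcer1g, Fcrls, Fcgr3, Fcgrt, Fcgr2b, Fcgr1 and Fcgr4, with Fcer1g highest and Fcgr4 lowest in 13 of 13. The exceptions were the APPPS1;Apoe-/- libraries with low App, in which Fcgr3 stood above Fcrls, and in replicate 5 Fcgrt stood above Fcrls as well. Among the activating receptors Fcgr3 dominated: it made up 91.3% to 94.3% of the summed RPKM of Fcgr1, Fcgr3 and Fcgr4 in APPPS1;Apoe-/- libraries, against 89.2% to 91.4% in APPPS1 libraries. These shares depend on the unstated gene lengths and on any exchange of values between Fcgr3 and Fcgr2b. Fcrls and Fcgr3, neighbours in this order, had overlapping ranges in both groups. Fcgr1 and Fcgr4 did not overlap each other in either group.

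**Figure D1:**
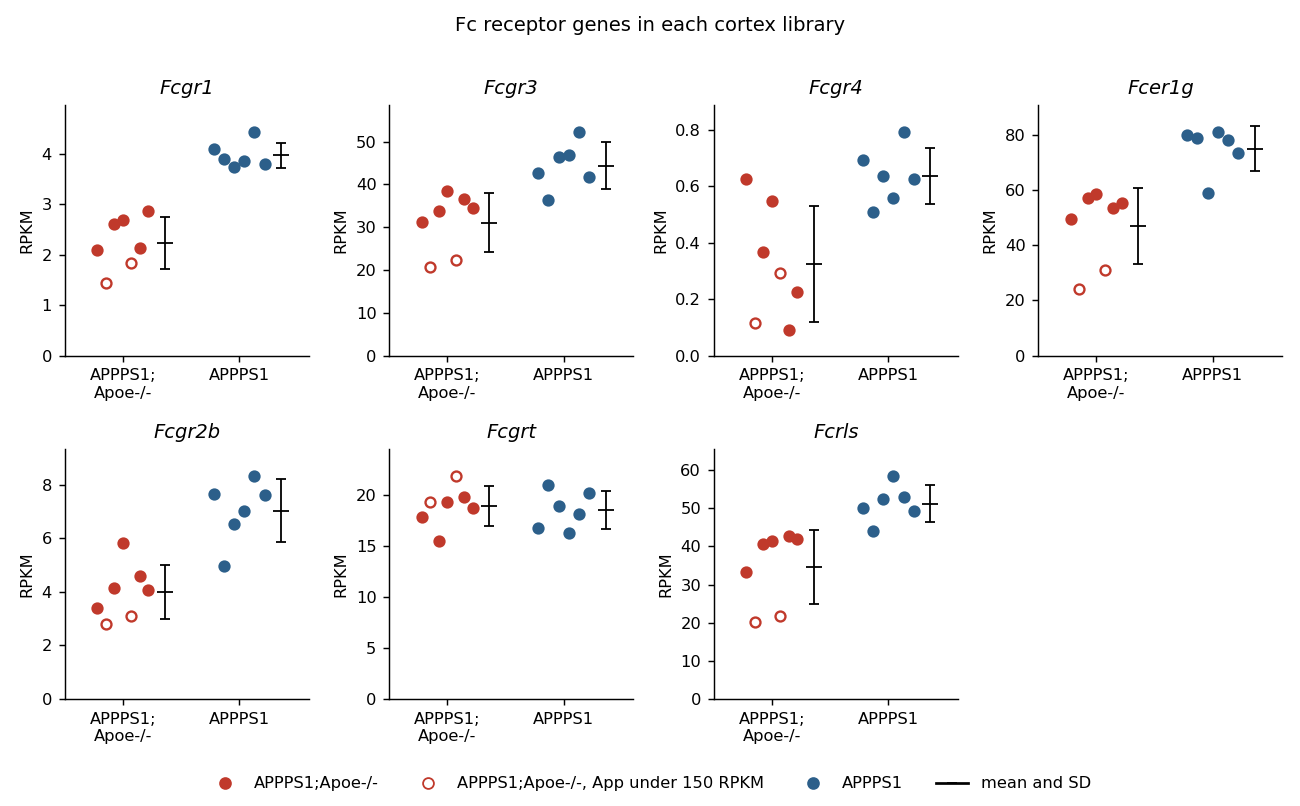
RPKM of each Fc receptor gene (vertical axes, each from 0) in the 7 APPPS1;Apoe-/- libraries (left, open circles where App was under 150 RPKM) and the 6 APPPS1 libraries (right), with group mean and SD. The groups do not overlap for Fcgr1, Fcer1g and Fcrls, overlap in part for Fcgr3, Fcgr4 and Fcgr2b, and lie at the same level for Fcgrt, with means of 18.9 and 18.6 RPKM.

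Of the 7 genes, 6 had a mean of at least 0.5 RPKM and were tested, and 5 of these fell in the absence of Apoe, with 0 higher. Over all 13343 genes tested, 4.74% were called lower and 3.48% higher at an adjusted p under 0.05. The fallen genes were Fcgr1, Fcgr3, Fcer1g, Fcgr2b and Fcrls, with means lower by between 30% (Fcgr3) and 43.7% (Fcgr1) in APPPS1;Apoe-/- cortex, and Fcgrt did not pass. The median log2 difference of the 6 tested genes was -0.67, beside -0.01 over all tested genes. For 3 genes (Fcgr1, Fcer1g and Fcrls) the groups were fully apart, with the highest APPPS1;Apoe-/- value under the lowest APPPS1 value, as was so for 2.17% of all tested genes. In cortex tissue, fewer microglia and less RNA per microglial cell cannot be told apart.

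The activating receptor Fcgr1 showed the smallest adjusted p among the members. Its lowest, median and highest values were 1.44, 2.12 and 2.86 RPKM in APPPS1;Apoe-/- libraries, against 3.75, 3.87 and 4.43 RPKM in APPPS1 libraries. The highest library without Apoe thus stayed below the lowest library with it, and the low-App replicates 2 and 5 were the lowest of the 13. The difference of log2(RPKM + 0.5), a scale that understates changes of weak genes, was -0.73 ± 0.11 (SE, limma adjusted p = 0.000865). It was -0.59 ± 0.08 with the low-App libraries left out (adjusted p = 0.000449), and with alignments as a covariate -0.70 (adjusted p = 0.0258). Fcgr1 was the one member whose call held in the fits with that covariate over all 13 libraries.

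Fcgr3, the most abundant activating receptor, had its lowest, median and highest values at 20.7, 33.7 and 38.4 RPKM in APPPS1;Apoe-/- libraries, against 36.3, 44.6 and 52.2 RPKM in APPPS1 libraries. APPPS1;Apoe-/- replicates 4 and 6 reached above APPPS1 replicate 2, the lowest of its group, and the other 5 lay below every APPPS1 library. The log2 difference was -0.53 ± 0.13 (SE, limma adjusted p = 0.0229). It shrank to -0.34 ± 0.08 without the low-App libraries (adjusted p = 0.0283), and the call ended with the alignments covariate (-0.46, adjusted p = 0.185) and without APPPS1 replicate 5 (-0.48, adjusted p = 0.0520).

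Fcgr4, in mice a receptor for IgG2a and IgG2b, was near the limit of measurement. Its lowest, median and highest values were 0.0898, 0.292 and 0.627 RPKM in APPPS1;Apoe-/- libraries, against 0.509, 0.631 and 0.792 RPKM in APPPS1 libraries. APPPS1;Apoe-/- replicates 1 and 4 reached into the APPPS1 range, and the other 5 libraries lay below it. With the transcript of 1256 bases these levels correspond to only about 2.65 to 21.2 alignments per APPPS1;Apoe-/- library, against 19.9 to 61.5 per APPPS1 library. Its mean over all libraries, 0.468 RPKM, was under the filter, so it has no test in the main fit. With no filter its log2 difference of -0.50 had a limma adjusted p of 0.0774, and the size depended on the pseudocount, being -0.94 with a pseudocount of 0.1.

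Fcer1g, the gamma chain through which these receptors signal, was the most abundant member. Its lowest, median and highest values were 24.0, 53.5 and 58.7 RPKM in APPPS1;Apoe-/- libraries, against 59.1, 78.4 and 81.1 RPKM in APPPS1 libraries. The groups touched without overlapping: APPPS1 replicate 3, the deepest library, lay at 59.1 RPKM, while the other 5 APPPS1 libraries were at 73.5 RPKM or more. The log2 difference was -0.73 ± 0.18 (SE, limma adjusted p = 0.0215). When the low-App libraries, at 24.0 and 30.9 RPKM, were left out, it was -0.45 ± 0.08 (adjusted p = 0.00424), so those libraries enlarged the difference and also its error. The alignments covariate left the size at -0.73 and ended the call (adjusted p = 0.128).

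The inhibitory receptor Fcgr2b fell by about as much as Fcgr1. Its lowest, median and highest values were 2.81, 4.08 and 5.80 RPKM in APPPS1;Apoe-/- libraries, against 4.97, 7.32 and 8.34 RPKM in APPPS1 libraries. APPPS1;Apoe-/- replicate 4 was the one library of its group above APPPS1 replicate 2. The log2 difference was -0.76 ± 0.14 (SE, limma adjusted p = 0.00378), and -0.62 ± 0.13 without the low-App libraries (adjusted p = 0.0119). With the alignments covariate it was -0.74, and the adjusted p of 0.0565 missed the threshold.

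Fcrls, which marks microglia, had its lowest, median and highest values at 20.2, 40.7 and 42.6 RPKM in APPPS1;Apoe-/- libraries, against 44.1, 51.3 and 58.6 RPKM in APPPS1 libraries. The groups did not overlap, and the low-App replicates 2 and 5, at 20.2 and 21.9 RPKM, stood far below the other APPPS1;Apoe-/- libraries, which began at 33.4 RPKM. The log2 difference was -0.61 ± 0.16 (SE, limma adjusted p = 0.0315), and -0.35 ± 0.08 without the low-App libraries (adjusted p = 0.0153). The call was the least stable of the 5. It ended with the alignments covariate (-0.52, adjusted p = 0.221) and when any of APPPS1;Apoe-/- replicates 1 and 5 or APPPS1 replicates 1, 4, 5 and 6 was left out, with adjusted p between 0.0515 and 0.0645.

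The neonatal receptor gene Fcgrt differed from the rest. Its lowest, median and highest values were 15.5, 19.4 and 21.9 RPKM in APPPS1;Apoe-/- libraries, against 16.3, 18.6 and 21.1 RPKM in APPPS1 libraries. The ranges lay almost on top of each other, and the low-App replicate 5 was the highest of all 13 libraries. The log2 difference was 0.026 ± 0.076 (SE, limma adjusted p = 0.868), and -0.024 ± 0.078 without the low-App libraries (adjusted p = 0.899). The low-App libraries were the 2 lowest of all 13 for 5 of the 7 members, the exceptions being Fcgrt and Fcgr4.

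**Figure D2:**
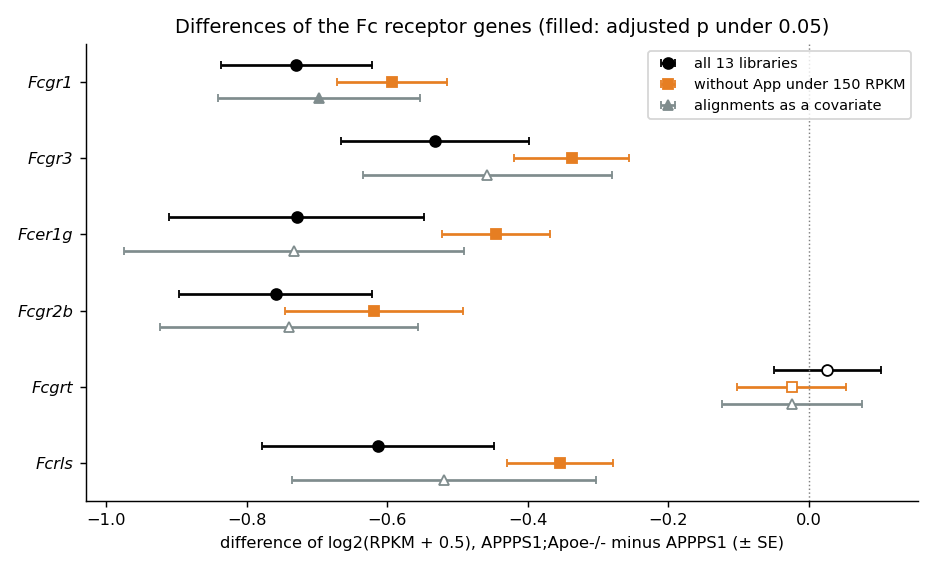
Difference of log2(RPKM + 0.5), APPPS1;Apoe-/- minus APPPS1, with its SE, for the 6 tested members in 3 limma fits: all 13 libraries, without the 2 libraries with App under 150 RPKM, and with log2 alignments as a covariate. Filled symbols passed an adjusted p of 0.05: 5 members in each of the first fits and only Fcgr1, at -0.70, with the covariate.

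Without the low-App libraries the same 5 genes were called lower, where 3.3% of all tested genes were, and Fcgr1, Fcer1g and Fcrls again did not overlap between the groups, where 2.84% of all tested genes did not. The means were then 21.4% to 37.7% lower in APPPS1;Apoe-/- cortex. With the alignments covariate 1 of 6 tested members was called lower, where 0.989% of all genes were, and with both changes 2 of 6 (Fcgr1 and Fcer1g), where 1.48% were. With no filter on low values 2 of 7 were called lower (Fcgr1 and Fcgr2b), where 2.47% of 20915 genes were. With the sex score as a covariate 5 of 6 were called lower, where 594 of 13343 genes were.

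Many microglial genes were lower, though not all. Each member was therefore also set against the mean log2 level of 14 genes that microglia express in the resting state. Csf1r, the receptor of the microglial growth factor, is one of them, at 25.3 ± 4.53 RPKM in APPPS1;Apoe-/- libraries, against 34.9 ± 4.26 RPKM in APPPS1 libraries (SD, n = 7 and 6). Of these 14 homeostatic genes 7 were called lower and 0 higher, with a median of -0.35, where 4.74% of all tested genes were called lower. Without the low-App libraries 6 were lower, with a median of -0.26, where 3.3% were. With the alignments covariate limma called 0 of them (8 were lower at an unadjusted p under 0.05), where 0.989% were. With the sex score as a covariate 7 were called lower and 1 higher, where 594 and 418 of all 13343 tested genes were. In the main fit Mertk differed by 0.32 and Tmem119 by -0.076 (limma adjusted p = 0.0766 and 0.776). Altogether 13 ratios were tested, 7 to the mean of the 14 homeostatic genes and 6 to Fcgr2b, and p-values were adjusted over the 13. None of the ratio tests adjusted for alignments, which moved with genotype, so whether their calls would hold with that covariate was not tested. Fcgr1 fell relative to the homeostatic genes: the log2 ratio was lower by a difference of -0.36 (two-sided exact permutation p = 0.00117, adjusted 0.0152), and 7 of 7 APPPS1;Apoe-/- libraries lay below every APPPS1 library. Without the low-App libraries the difference was again -0.36 (exact p = 0.00216, the smallest the 462 splits allow, adjusted 0.0281).

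Fcgr2b and Fcer1g also fell relative to the homeostatic genes, but these calls depended on which libraries were included. The differences of the log2 ratio were -0.39 for Fcgr2b (exact permutation p = 0.00524, adjusted 0.0227) and -0.36 for Fcer1g (exact p = 0.0128, adjusted 0.0417). In the remaining 11 libraries they were -0.39 and -0.21, with adjusted p of 0.0633 and 0.0957 in the same exact test. The ratio of Fcer1g also lost its call when any of 9 single libraries was left out. For Fcgr3 and Fcrls the differences of the ratio were -0.16 and -0.24 (exact p = 0.0350 and 0.0303, adjusted 0.0568 and 0.0563), which did not pass. The ratio of Fcgr4 differed by -0.13 (exact p = 0.505) and that of Fcgrt by 0.40 (exact p = 0.0286, adjusted 0.0563). With the low-App libraries left out the differences were smaller for 3 of these genes: -0.10 for Fcgr3, -0.12 for Fcrls and 0.21 for Fcgrt (exact p = 0.117, 0.0909 and 0.0844), and -0.18 for Fcgr4 (exact p = 0.379).

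**Figure D3:**
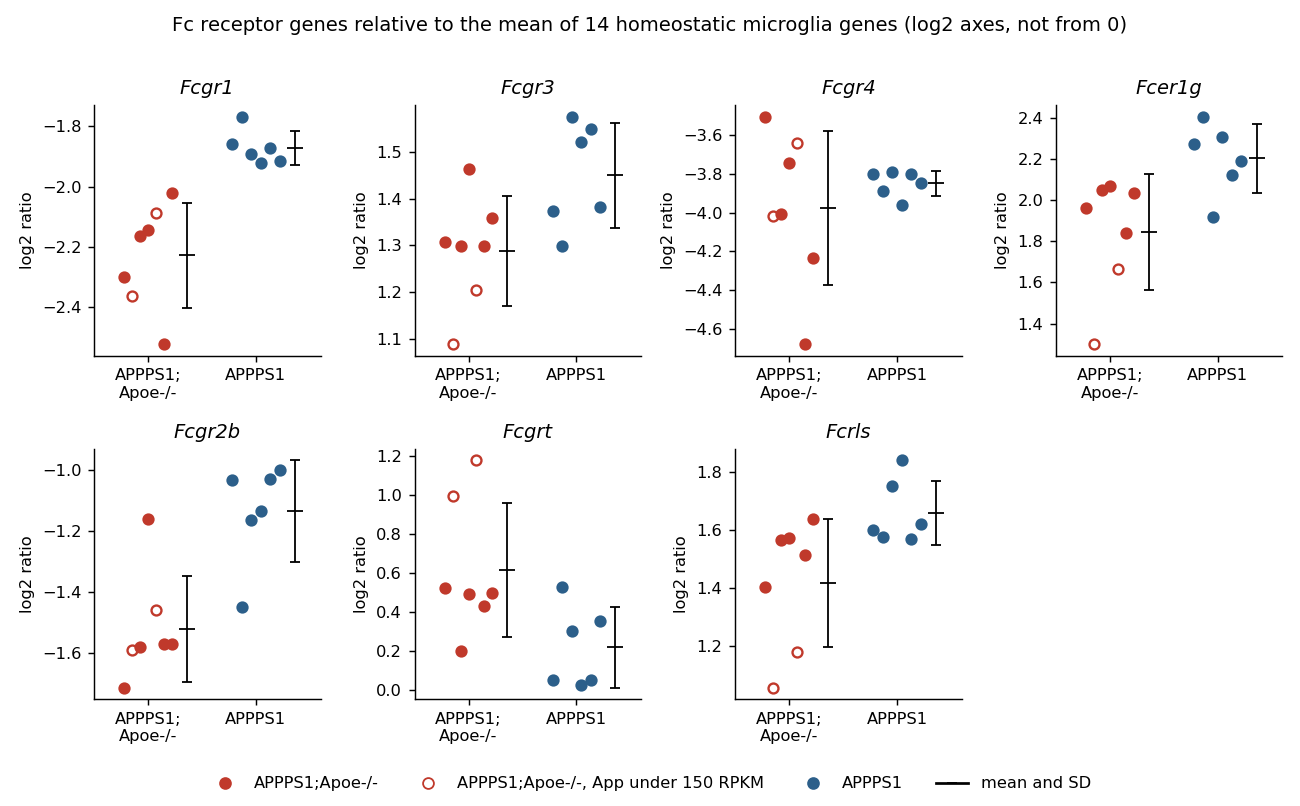
Log2 ratio of each Fc receptor gene to the mean of 14 homeostatic microglia genes (vertical axes on a log2 scale, not from 0) in APPPS1;Apoe-/- libraries (left, open circles where App was under 150 RPKM) and APPPS1 libraries (right), with group mean and SD. For Fcgr1 the 7 APPPS1;Apoe-/- libraries, at -2.02 or less, all lie below the APPPS1 libraries, at -1.92 or more, while Fcgr4 spreads over the whole APPPS1 range.

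The balance of activating to inhibitory receptor was compared as a ratio within each library. Fcgr3 ran at 6.61 to 9.16 times the RPKM of Fcgr2b in APPPS1;Apoe-/- libraries (median 7.99), against 5.48 to 7.30 times in APPPS1 libraries (median 6.46). The ranges overlapped, and the log2 ratio was higher by 0.23 (exact permutation p = 0.0268, adjusted 0.0563), which did not pass. Without the low-App libraries it was 0.28 (exact p = 0.0195, adjusted 0.0633). The log2 ratio of Fcgr1 to Fcgr2b differed by 0.029 (exact p = 0.801) and that of Fcer1g to Fcgr2b by 0.030 (exact p = 0.852), and the ratios of Fcgr4 and Fcrls to Fcgr2b differed by 0.26 and 0.15 (exact p = 0.171 and 0.274). With the low-App libraries left out these 4 differences were 0.026 for Fcgr1, 0.17 for Fcer1g, 0.20 for Fcgr4 and 0.26 for Fcrls (exact p = 0.848, 0.262, 0.396 and 0.0563). Fcgrt rose relative to Fcgr2b, by 0.78 (exact p = 0.00466, adjusted 0.0227), and by 0.59 without the low-App libraries (adjusted 0.0633).

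The signalling chains were also set side by side, in ratios chosen after their values were seen and given without a test. Fcer1g stood at 0.50 to 0.670 times the RPKM of Tyrobp, the adapter of other myeloid receptors, in APPPS1;Apoe-/- libraries (median 0.582), against 0.340 to 0.389 times in APPPS1 libraries (median 0.365). The groups did not overlap, and the low-App libraries had the highest ratios, 0.670 and 0.638, with the other 5 APPPS1;Apoe-/- libraries at 0.50 to 0.585. Fcgr3 stood at 12.1 to 17.2 times Fcgr1 in APPPS1;Apoe-/- libraries, against 9.33 to 12.4 times in APPPS1 libraries, and Fcer1g at 1.08 to 1.56 times the sum of the 3 activating receptors, against 1.16 to 1.94 times, with overlap in both.

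**Figure D4:**
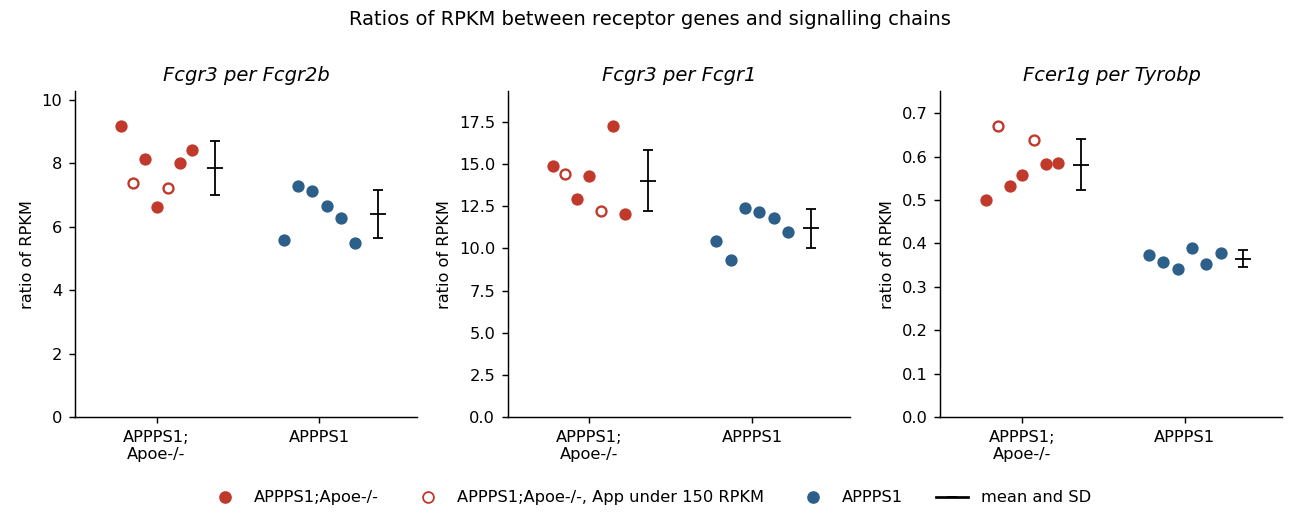
Ratios of RPKM within each library (vertical axes from 0): Fcgr3 to Fcgr2b, Fcgr3 to Fcgr1 and Fcer1g to Tyrobp, in APPPS1;Apoe-/- libraries (left, open circles where App was under 150 RPKM) and APPPS1 libraries (right), with group mean and SD. Fcer1g to Tyrobp has a median of 0.582 in APPPS1;Apoe-/- and 0.365 in APPPS1 libraries, with a gap between the groups.

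Downstream of the receptors, kinases of the Src family phosphorylate the gamma chain, Syk docks there, and adapters pass the signal to phospholipase C gamma and the actin skeleton. Of 28 signalling genes 23 were tested, and 6 fell and 0 rose, where 4.74% of all tested genes were called lower. The median log2 difference of the 23 was -0.19. Besides genes downstream of the Fc receptors, the list holds Tyrobp, the adapter of other myeloid receptors, and Nfam1, itself a receptor. The genes that fell were chiefly adapters. Tyrobp averaged 83.1 ± 28.7 RPKM in APPPS1;Apoe-/- libraries, against 205 ± 18.6 RPKM in APPPS1 libraries (SD, n = 7 and 6), a log2 difference of -1.39 (limma adjusted p = 0.00125), and its gene lies on chromosome 7, 10.7 Mb from Apoe. Lat2, a membrane scaffold of Fc receptor signalling, averaged 3.46 ± 0.947 RPKM, against 7.18 ± 0.985 RPKM (-0.99, adjusted p = 0.000989). Arpc1b, a subunit of the actin-branching Arp2/3 complex, differed by -0.42, the adapters Blnk and Lcp2 by -0.47 and -0.39, and the ITAM receptor Nfam1 by -0.44 (adjusted p between 0.0107 and 0.0340).

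The kinases described here did not pass the test. Syk averaged 0.621 ± 0.162 RPKM in APPPS1;Apoe-/- libraries and 0.758 ± 0.285 RPKM in APPPS1 libraries (limma adjusted p = 0.540), and Lyn, a Src-family kinase, 3.53 ± 0.889 and 4.15 ± 0.842 RPKM (adjusted p = 0.363). For the related Fyn the adjusted p was 0.139. Btk, a kinase that activates phospholipase C gamma, and Plcg2, that phospholipase, had log2 differences of -0.38 and -0.31 (adjusted p = 0.0698 and 0.136). Without the low-App libraries 3 signalling genes were called lower (Tyrobp, Lat2 and Arpc1b), where 3.3% of all tested genes were. With the alignments covariate 2 were, Tyrobp and Lat2 (limma adjusted p = 0.0371 and 0.0248), where 0.989% of all tested genes were.

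Of 12 genes that restrain the signal 9 were tested, and 2 fell and 0 rose, where 4.74% of all tested genes were called lower. The median log2 difference of the 9 was -0.13. Ptpn6, the tyrosine phosphatase SHP-1, averaged 3.88 ± 1.01 RPKM in APPPS1;Apoe-/- libraries, against 6.41 ± 0.309 RPKM in APPPS1 libraries (-0.69, limma adjusted p = 0.00491). Dok1, an adapter that dampens Ras signalling, averaged 0.960 ± 0.220 RPKM, against 1.51 ± 0.183 RPKM (-0.47, adjusted p = 0.00804). Inpp5d, the lipid phosphatase that the Fcgr2b tail recruits, averaged 3.22 ± 0.832 and 3.48 ± 0.168 RPKM (adjusted p = 0.538). The calls of Ptpn6 and Dok1 held without the low-App libraries, where 3.3% of all tested genes were called lower. Neither held with the alignments covariate (limma adjusted p = 0.0782 and 0.0660), where 0.989% were.

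**Figure D5:**
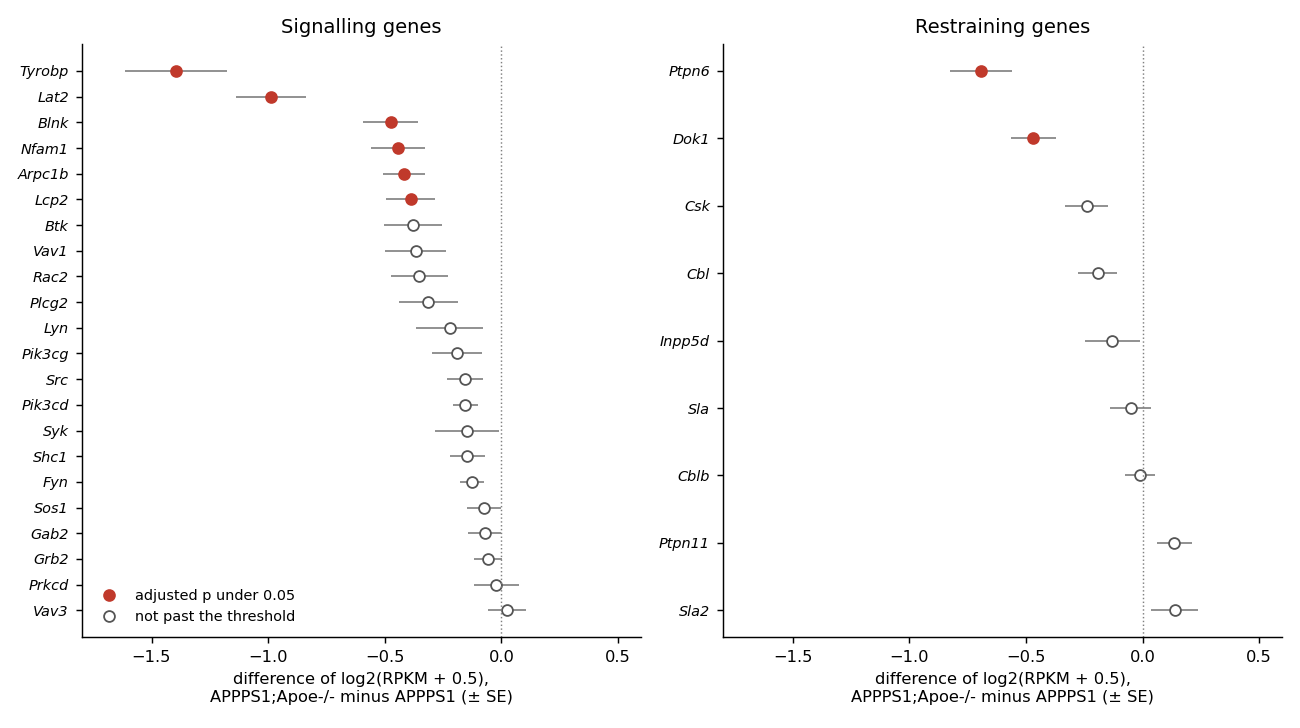
Difference of log2(RPKM + 0.5), APPPS1;Apoe-/- minus APPPS1, with its SE, for 22 of the 23 tested signalling genes (left panel) and the 9 tested restraining genes (right panel), ordered by size. The filled points, 6 and 2, passed an adjusted p of 0.05, led by Tyrobp at -1.39 and Ptpn6 at -0.69.

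Of 25 other Fc receptors and IgG partners 17 were measured, of which 2 passed the filter, while the remaining 8 were not analysed here. B2m, the partner chain of the neonatal receptor and of MHC class I, averaged 218 ± 43.7 RPKM in APPPS1;Apoe-/- libraries, against 302 ± 43.7 RPKM in APPPS1 libraries (-0.48, limma adjusted p = 0.0348), so it fell where Fcgrt did not pass. That call ended without the low-App libraries (-0.32, adjusted p = 0.0631). Fcrl1, a B-cell member of the Fc receptor-like family, was at 0.624 ± 0.158 and 0.515 ± 0.0757 RPKM (adjusted p = 0.424). Trim21, the cytosolic IgG receptor, averaged 0.0590 RPKM in APPPS1;Apoe-/- libraries and 0.0670 RPKM in APPPS1 libraries and was not tested.

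Marker genes of the cells that could carry Fc receptors moved as follows, and their part in the members' differences was not tested. Summed RPKM of the 14 homeostatic microglia genes was 199 to 334 in APPPS1;Apoe-/- libraries, against 365 to 441 in APPPS1 libraries. For 16 genes that microglia induce at plaques it was 201 to 344, against 503 to 583, with Cd63, a lysosomal tetraspanin, the most abundant at 100.4 ± 11.2 and 139 ± 7.92 RPKM. Of the 16 plaque-induced genes 14 were called lower, both with and without the low-App libraries, where 4.74% and 3.3% of all genes were, and 7 with the alignments covariate, where 0.989% were. Neither range overlapped between the groups. The sums of the other lists overlapped: 5.48 to 9.33 RPKM against 5.84 to 9.19 for 8 border macrophage genes, 2.01 to 8.83 against 1.22 to 3.83 for 9 monocyte and neutrophil genes, and 5.31 to 8.25 against 5.40 to 6.43 for 7 mast cell genes. The mast cell sum was mostly Kit, which averaged 5.51 RPKM over all libraries, while 4 of the 7 genes averaged under 0.1 RPKM. Of these, Mcpt4, a mast cell protease, was listed at 0 in every library. Single genes of the overlapping lists were called: Stab1, a scavenger receptor of border macrophages, was higher (0.26, limma adjusted p = 0.0477), while the endothelial growth factor receptor gene Kdr (-0.32, adjusted p = 0.0335) and the neuronal glutamate transporter gene Slc17a7 (-0.42, adjusted p = 0.0245) were lower. In the 11 libraries without low App the call of Stab1 held, those of Kdr and Slc17a7 ended (adjusted p = 0.0764 and 0.0863), and the endothelial junction gene Cldn5 was called lower (-0.58, adjusted p = 0.0223). These 4 genes were chosen after their values were seen. Their adjusted p with the alignments covariate lay between 0.0762 and 0.241. Lists of 5 B and plasma cell genes and 8 T and NK cell genes summed to at most 1.55 RPKM in any library. For 8 endothelial genes, whose cells also carry Fcgrt, the sum was 30.9 to 34.7 against 27.3 to 38.8 RPKM, and for 7 neuronal genes 3054 to 3873 against 3037 to 3537 RPKM.

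Among the members, Fcgr3 and Fcrls followed each other most closely across the 13 libraries. Likeness was taken as the mean absolute difference of log2(RPKM + 0.5) after centring each gene on its own mean, and it was 0.103 for this pair, 0.125 for Fcer1g and Fcrls, and 0.440 for the least alike, Fcgr2b and Fcgrt. Among 13337 other genes, those nearest to Fcgr1 were Pycard, the inflammasome adapter, at 0.0737, then Ptpn6 and Cyba, a subunit of the phagocyte oxidase. Those nearest to Fcgr3 were Cd53, a leukocyte tetraspanin, at 0.0548, Csf1r, and Fyb, a leukocyte adapter. Fcer1g was nearest to Ctss, a lysosomal protease, at 0.0768, then Itgb2 and Mpeg1, and Fcrls to Olfml3, a microglial secreted protein, at 0.0739, then Cd53 and Laptm5. Fcgr2b stood farther from its neighbours Irf8, H2-D1 and Csf3r, at 0.127 or more. These distances describe 13 libraries that share depth and genotype as sources of variation.

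Because several members moved together, their promoters were searched on both strands for GAGGAA (the core recognised by the myeloid factor PU.1), an interferon-response pattern (a pair of GAAA blocks set apart by 2 free bases) and TTCNNNGAA (the pattern bound by STAT factors). The windows, from RefSeq on GRCm38.p6, ran from 250 bases before to 50 bases after the gene start, and 7 of 7 members had one. GAGGAA occurred in 4 of 7, namely Fcgr1, Fcgr3, Fcgr4 and Fcrls, and in 28.3% of 32851 promoters. The interferon-response pattern occurred in Fcgr4 alone among the members, and in 3.44% of all promoters. TTCNNNGAA occurred in Fcgr1 alone among them, and in 8.30% of all promoters. Parts of these windows follow 5′ to 3′ on the strand of the gene, with GAGGAA, or its opposite-strand reading TTCCTC, in capitals, and for Fcgr1 also the TTCNNNGAA match:
Fcgr1 chr3:96294009-96294089, minus strand: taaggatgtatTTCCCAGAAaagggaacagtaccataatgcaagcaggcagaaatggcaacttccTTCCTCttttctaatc
Fcgr3 chr1:171059374-171059439, minus strand: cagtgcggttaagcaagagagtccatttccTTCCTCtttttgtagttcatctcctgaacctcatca
Fcgr4 chr1:171018874-171018939, plus strand: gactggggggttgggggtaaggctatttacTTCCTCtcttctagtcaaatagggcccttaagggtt
Fcrls chr3:87263633-87263698, minus strand: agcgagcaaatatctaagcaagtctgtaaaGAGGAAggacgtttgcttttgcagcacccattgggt
The windows of Fcgr1 and Fcgr3 shared a run of 14 bases around the match, ttccttcctctttt. The RefSeq start of Fcgr3 lies inside the GENCODE gene. Fcer1g and Fcgr2b, which also fell, and Fcgrt, which did not pass, held none of the 3 patterns in these windows, and a match or its absence says nothing here about binding.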

How the data were processed

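Per the labels' protocols, RNA came from flash-frozen cortex by Trizol extraction, followed by Clontech SMARTer. A single table deposited by the authors holds gene RPKM and the count of alignments of each library. Software and build were Partek and mm10, per the submitters' processing notes. The sources used here name no aligner, counting rule, strand setting or annotation.

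Genes averaging 0.5 RPKM or more (13343) were tested on log2(RPKM + 0.5) with limma 3.58.1 in R 4.3.3 (lmFit, eBayes with a mean-variance trend), two-sided, with Benjamini-Hochberg adjustment over all of them. The 13 ratios used exact permutation of the group labels (1716 splits, smallest p 0.000583, and 462 without the low-App libraries). The code was tested on simulated data. RPKM carry no stated sampling error, so no counting interval is given, and deeper libraries measure weak genes more precisely.

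Genes named are the members, Apoe and App, up to 8 called genes per pathway list, a set named in any case (Syk, Lyn, Fyn, Btk, Plcg2, Inpp5d, Ptpn6, Tyrobp, B2m, Trim21), the 3 nearest genes of each called member and the highest marker of each cell type. Some genes the rule selects are not reported here. Fcrl1, Mcpt4, Stab1, Kdr, Slc17a7 and Cldn5 fall outside this rule and were chosen after their values were seen. The members and lists were chosen with earlier results of these data known. Alternatives were other pseudocounts (0.1, 1), no filter, a filter at 1 RPKM, median and quantile scaling, no trend, array weights, a sex score, alignments as a covariate, and leaving out each library or both low-App libraries. Positions are from GENCODE release M21 and promoters from RefSeq. Tables and exact tests were handled in Python 3.11.15 (scipy 1.17.1, numpy 2.4.6, pandas 2.3.3), and figures drawn with matplotlib 3.10.9.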

Additional observations from a re-analysis of the deposited data

Results flagged for a closer look

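Among 40 groups of values, 3 held a library whose gap to its nearest neighbour exceeded the critical share of the group's range (0.625 for 6 libraries), and chance marks about 1 in 20 groups. Fcer1g in APPPS1 libraries had a gap of 0.655 of the range, since replicate 3, at 59.1 RPKM, lay below the other 5. Fcgr1 relative to Fcgr2b in APPPS1 libraries had a gap of 0.686, since replicate 2 lay above the others. Fcgr2b relative to the homeostatic microglia genes in APPPS1 libraries had a gap of 0.634, since replicate 2 lay below the others. In replicate 2 Fcgr2b stood at 4.97 RPKM, the lowest of its group. The sex score of this library was -3.52, against 3.48 or more in the other APPPS1 libraries, and a link to its values was not tested.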

How the results depend on the processing

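No paired analysis was possible because the labels give the groups no shared replicate numbers. With alignments as a covariate calls were lost for Fcer1g (log2 difference -0.73), Fcgr2b (-0.74), Fcgr3 (-0.46) and Fcrls (-0.52), and with the low-App libraries also left out for Fcgr2b (-0.66), Fcgr3 (-0.35) and Fcrls (-0.38). With no filter on low values Fcer1g (-0.73), Fcgr3 (-0.53) and Fcrls (-0.61) missed the threshold. More genes share the adjustment there, and the unadjusted limma p also rose. It went from 0.000993 to 0.00328 for Fcer1g, from 0.00110 to 0.00326 for Fcgr3 and from 0.00185 to 0.00528 for Fcrls. Of all tested genes 3.3% were called lower without the low-App libraries, 0.989% with the covariate, 1.48% with both changes and 2.47% with no filter. Members called lower numbered 1 with the covariate and 2 with both changes or no filter. Signalling genes called lower numbered 3 without the low-App libraries and 2 with the covariate or both, restraining genes 0 and 1 with the covariate and both, and other partners 0 without the low-App libraries, with the covariate or with no filter. The difference of Fcgr4 was -0.94 with a pseudocount of 0.1. Fcgrt turned to -0.024 without the low-App libraries or with the covariate and to -0.033 with both. Of the ratios to Fcgr2b, that of Fcer1g turned to -0.026 with a pseudocount of 1 and -0.019 by quantile scaling, and with a pseudocount of 0.1 that of Fcgr1 to -0.013 and of Fcgr4 to -0.12, while Fcgr4 to homeostatic genes turned to 0.039 with a pseudocount of 1. Calls were gained with a pseudocount of 0.1 for Fcgr3 to Fcgr2b (0.28), with a pseudocount of 1 for Fcgr4 to Fcgr2b (0.38) and for Fcgr3 (-0.17), Fcgrt (0.38) and Fcrls (-0.25) to homeostatic genes, and by quantile scaling for Fcrls (-0.27). Without the low-App libraries the ratio of Fcgrt to Fcgr2b (0.59) and those of Fcer1g (-0.21) and Fcgr2b (-0.39) to homeostatic genes lost their calls.

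Leaving out 1 library at a time gave -0.80 to -0.58 for Fcer1g, -0.78 to -0.65 for Fcgr1, -0.85 to -0.69 for Fcgr2b, -0.59 to -0.44 for Fcgr3, -0.58 to -0.42 for Fcgr4, -0.0092 to 0.073 for Fcgrt and -0.67 to -0.50 for Fcrls. Members called lower ranged from 3 (without APPPS1 replicate 5) to 5, signalling genes from 3 (without APPPS1 replicate 6) to 8, restraining genes stayed at 2 and other partners ranged from 0 to 1, B2m losing its call without any of APPPS1;Apoe-/- replicates 1 and 5 and APPPS1 replicates 1, 2, 4, 5 and 6. The shares of all tested genes called lower in these fits are not given here, so these counts cannot be set against them. The ratios to Fcgr2b ranged from -0.022 to 0.13 for Fcer1g, -0.014 to 0.11 for Fcgr1, 0.19 to 0.26 for Fcgr3, 0.15 to 0.37 for Fcgr4, 0.70 to 0.91 for Fcgrt and 0.10 to 0.20 for Fcrls. The ratios to homeostatic genes ranged from -0.41 to -0.27 for Fcer1g, -0.39 to -0.31 for Fcgr1, -0.45 to -0.35 for Fcgr2b, -0.19 to -0.13 for Fcgr3, -0.20 to -0.0090 for Fcgr4, 0.30 to 0.47 for Fcgrt and -0.28 to -0.18 for Fcrls. Over all genes the main fit called 633 lower and 465 higher, median scaling 531 and 701 and quantile scaling 608 and 687, under both of which 5 members were called lower. The cause of these shifts was not tested.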
